A study of Mus musculus with 8 samples.

Results

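The genes described here encode the SLC25 carriers, the proteins of the inner mitochondrial membrane that move metabolites between the cytosol and the matrix. They were chosen by name: every row of a mouse liver read count table with a symbol formed of Slc25a and a number, together with Ucp1, Ucp2 and Ucp3, which belong to the same family. Slc25a20 was not included. The choice gave 46 of the 22946 rows of the table, and none of the 46 was a row that joins several symbols. Of the 46, 39 had enough reads to be tested, among 12593 tested rows in all. The 7 that did not were Slc25a2, Slc25a18, Slc25a31, Slc25a41, Slc25a43, Ucp1 and Ucp3.

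SLC25 carriers are small membrane proteins that swap one metabolite for another across a membrane that is otherwise closed to charged molecules. They supply the matrix with ADP and phosphate for ATP synthesis, let out citrate for fatty acid synthesis, carry malate, aspartate and glutamate for redox shuttles, and exchange ornithine for citrulline in the urea cycle. In liver, where lipid synthesis, urea synthesis and glucose production all run partly inside and partly outside mitochondria, such carriers join the compartments of these pathways.

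Total liver RNA was sequenced from C57 Black mice that were wild-type or labelled MLL4 het, and that ate chow or a diet high in fat (HFD) for 8 weeks, beginning when they were 8 weeks old. MLL4 is a histone H3 lysine methyltransferase encoded by Kmt2d, and the labels name neither the allele nor the sex of the mice. Each of the 4 groups held 2 libraries, numbered 1 and 2 for wild-type chow, 5 and 6 for wild-type HFD, 3 and 4 for het-labelled chow, and 7 and 8 for het-labelled HFD. Whether each library stands for its own mouse is not stated, and p-values therefore reflect only the spread between libraries, which may be technical.

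Libraries held between 14142884 and 18928676 counts, and the unit of a level is CPM, a gene's counts for every 1e+06 counts of its library after scaling by edgeR. At this depth 3 counts correspond to 0.161 to 0.213 CPM. Within every group the counts of both libraries differed beyond sampling noise. On the third principal component of all tested genes, het-labelled HFD library 8 and het-labelled chow library 3 stood farthest from the rest. Kmt2d, which the table lists as Mll2, lay between 59.95 and 75.4 CPM over all libraries, and het-labelled libraries were not lower (log2 difference 0.06 ± 0.09, edgeR adjusted p = 0.747). The transcript level therefore does not check the genotype label, and these libraries are called het-labelled throughout. Hepatocyte markers summed to 69472 to 86431 CPM in every library, so the defining markers of the labelled tissue were present. By group the sums were 81452 to 86431 in wild-type chow, 73122 to 73215 in wild-type HFD, 79259 to 85592 in het-labelled chow and 69472 to 72333 in het-labelled HFD libraries. Every HFD library thus lay below every chow library in this sum, in which abundant markers weigh most. In each genotype 5 of the 7 markers had a negative log2 change on HFD and 2 a positive one, and 0 were called. The part of this difference in the carrier levels was not tested. In bulk tissue, fewer cells of a type and less RNA per cell cannot be told apart.

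The promoters of 4 carriers are shown here, chosen for the RNA results of these carriers. Slc25a25, Slc25a10 and Slc25a45 were called higher on HFD, and Slc25a1, the citrate carrier, was not called although Acly, the cytosolic enzyme that uses its citrate, was. Sequences are from RefSeq on build GRCm38.p6, whereas the counts were made on mm9. Each covers 250 bases before to 50 bases after an annotated start, 5′ to 3′ on the strand of the gene. Slc25a25 has 3 annotated starts, and the third is shown, at chr2:32424017-32424316 on the minus strand. It was picked because it alone of the 3 holds a sequence marked below, and which start is used in these livers was not tested. Slc25a10 is at chr11:120491587-120491886 and Slc25a45 at chr19:5877572-5877871, both on the plus strand, and Slc25a1 is at chr16:17928170-17928469 on the minus strand. Capitals mark the palindrome TGACGTCA, the cAMP response element, and the palindrome CACGTG, an E-box.
Slc25a25: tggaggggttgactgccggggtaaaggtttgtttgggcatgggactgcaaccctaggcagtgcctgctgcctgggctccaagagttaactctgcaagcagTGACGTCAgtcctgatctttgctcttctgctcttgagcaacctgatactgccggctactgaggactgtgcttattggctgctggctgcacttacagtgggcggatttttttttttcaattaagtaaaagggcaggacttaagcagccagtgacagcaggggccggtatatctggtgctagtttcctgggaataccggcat
Slc25a10: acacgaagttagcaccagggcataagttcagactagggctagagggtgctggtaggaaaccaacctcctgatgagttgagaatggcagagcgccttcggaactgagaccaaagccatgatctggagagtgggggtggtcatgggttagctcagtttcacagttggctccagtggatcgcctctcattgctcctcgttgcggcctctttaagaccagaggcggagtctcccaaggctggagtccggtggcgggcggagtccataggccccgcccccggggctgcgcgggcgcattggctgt
Slc25a45: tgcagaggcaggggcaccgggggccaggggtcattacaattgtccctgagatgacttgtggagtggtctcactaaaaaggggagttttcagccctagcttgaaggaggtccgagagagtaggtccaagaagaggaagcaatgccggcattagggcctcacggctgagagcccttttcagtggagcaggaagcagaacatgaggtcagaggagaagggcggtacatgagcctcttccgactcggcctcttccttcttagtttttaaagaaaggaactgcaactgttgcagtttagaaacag
Slc25a1: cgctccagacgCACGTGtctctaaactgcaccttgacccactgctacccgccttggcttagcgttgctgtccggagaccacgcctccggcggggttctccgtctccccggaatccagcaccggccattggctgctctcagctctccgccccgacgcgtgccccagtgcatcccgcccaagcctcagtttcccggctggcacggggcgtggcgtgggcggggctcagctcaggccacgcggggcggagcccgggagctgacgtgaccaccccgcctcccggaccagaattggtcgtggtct
In Slc25a25 the response element begins 150 bases before the start. In Slc25a1 the E-box begins 239 bases before it.

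RefSeq promoters could be matched for 36 of the 46 carriers, with 45 starts between them. The element TGACGTCA was found at 1 start each of Slc25a25 and Slc25a36, and in 1.79% of the 32851 promoters of the whole table. CACGTG was found in 7 carriers, Slc25a1, Slc25a13, Slc25a14, Slc25a15, Slc25a31, Slc25a33 and Slc25a36, at 8 of the 45 starts, against 7.15% of all promoters. Starts 1 and 2 of Slc25a14 have overlapping windows that hold the same site, which is counted at each. Of the 7 carriers called higher on HFD below, Slc25a44 was not searched, and the other 6 are not among the carriers with CACGTG. The D-box sequences TTATGTAA and TTACGTAA were in 0 carrier promoters, and in 0.938% and 0.119% of all promoters. Both strands were searched, and none of these letter strings contains another. A match describes the letters in this window and no more.

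Levels of different genes were compared per kilobase of exon, with exon lengths from GENCODE M21, which matched all 46 symbols. These lengths are approximate, because no source used here gives the gene models used for counting. On this scale 6 carriers stood at 100 CPM per kb or above. The highest was Slc25a5, the ADP/ATP carrier of most tissues outside muscle, at 256 CPM per kb. It was followed by Slc25a47, a liver carrier, at 186 and by Slc25a39, which brings glutathione into mitochondria, at 172. The phosphate carrier Slc25a3 at 128, the citrate carrier Slc25a1 at 111 and the ornithine-citrulline carrier Slc25a15 at 101 CPM per kb completed this group. A further 13 carriers lay between 10 and 100 CPM per kb, 15 between 1 and 10, and 12 below 1.

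**Figure D1:**
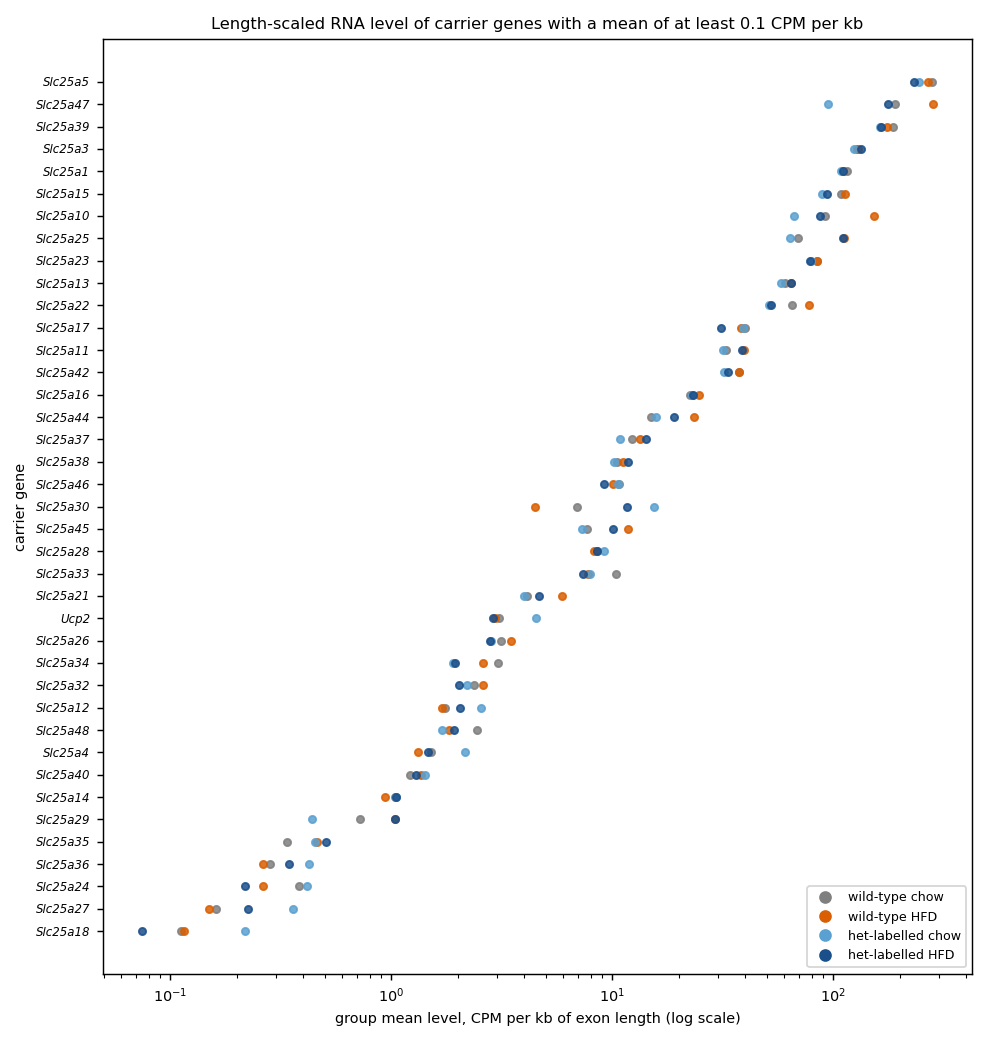
Mean level of each carrier in each genotype-diet group, in CPM per kilobase of exon on a log axis, for 39 carriers at or above 0.1 CPM per kb, ordered by level. Slc25a5 leads at 256 CPM per kb over all libraries, and the 4 groups of most carriers lie close together.

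Some carriers were at or near 0. Slc25a41, a relative of the ATP-Mg/Pi carriers, had 0 counts in all 8 libraries. Ucp1, the uncoupling protein of brown fat, had 1 count in all libraries together, and Ucp3, the form of muscle and brown fat, also had 1. The other untested carriers, Slc25a2, Slc25a18, Slc25a31 and Slc25a43, reached at most 0.483 CPM in any library. Of 6 adipocyte markers, Adipoq, Plin1, Lep and Retn reached at most 0.213 CPM in any library, while Fabp4 lay between 4.29 and 7.11. Cfd went from 0.504 and 0.5797 CPM on chow to 20.9 and 12.96 on HFD in wild-type livers and was called (log2 change 4.94 ± 0.81, edgeR adjusted p = 0.0131). In het-labelled livers its log2 change was 6.02 and was not called. That change starts from a lower chow level. The log2 difference of Cfd, het-labelled minus wild-type, was -3.70 on chow and -2.62 on HFD, neither called. The 6 summed to 5.103 to 5.68 CPM in wild-type chow, 20.2 to 27.6 in wild-type HFD, 4.42 to 5.88 in het-labelled chow and 5.97 to 9.66 in het-labelled HFD libraries, and their part in the carrier levels was not tested. Of 6 skeletal muscle markers, 4 were at 0 in every library and their sum lay between 0.213 and 0.8696 CPM. Slc25a4, the ADP/ATP carrier of heart and muscle, was between 1.96 and 4.68 CPM. Of the aspartate/glutamate carriers, Slc25a13, the citrin of liver, stood at 61.9 CPM per kb, and Slc25a12, the aralar of brain and muscle, at 2.01.

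The 46 carriers together took 3032 to 4278 CPM of a library. Their sum stood at 3627 and 3615 CPM on chow against 4076 and 4278 on HFD in wild-type livers, and at 3032 and 3248 on chow against 3646 and 3525 on HFD in het-labelled ones. Within each genotype the HFD libraries lay above the chow libraries, and on each diet the het-labelled libraries lay below the wild-type ones. Abundant carriers weigh most in this sum, so the carriers are described singly below.

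The design asks first how the liver of each genotype responded to the diet. In wild-type livers 4 of the 39 tested carriers were called higher on HFD and 0 lower, at an adjusted p under 0.05 (edgeR's quasi-likelihood test, Benjamini-Hochberg adjustment over all 12593 rows). That is 10.3%, where 4.59% of all tested rows were called and 2.37% were called higher. The 4 were Slc25a25, Slc25a10, Slc25a44 and Slc25a45. In het-labelled livers 2 carriers were called higher, Slc25a25 and Slc25a45, and 0 lower, which is 5.13% against 3.02% of all rows, or 1.53% for rises alone. Averaged over both genotypes, 7 were called higher and 0 lower. These were the same 4 with Slc25a11, Slc25a21 and Slc25a47, 17.9% of the carriers against 10.4% of all rows, or 5.56% for rises alone. Counts of called carriers depended on single libraries. Without wild-type library 1, 2, 5 or 6, the wild-type count was 0, 0, 1 and 0, and it was 6, with 5 higher and 1 lower, without het-labelled chow library 3 or 4. In het-labelled livers it was 1 without wild-type library 1, 2, 5 or 6 or het-labelled chow library 3, and the averaged count was 3 without wild-type library 1 and 4 without wild-type library 2, 5 or 6. The median log2 change of the 39 carriers was 0.02 in wild-type and 0.02 in het-labelled livers, beside 0.02 and -0.01 over all tested rows. Log2 changes below are HFD minus chow, ± standard error (SE), and a carrier is said to have risen or fallen only where it was called.

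**Figure D2:**
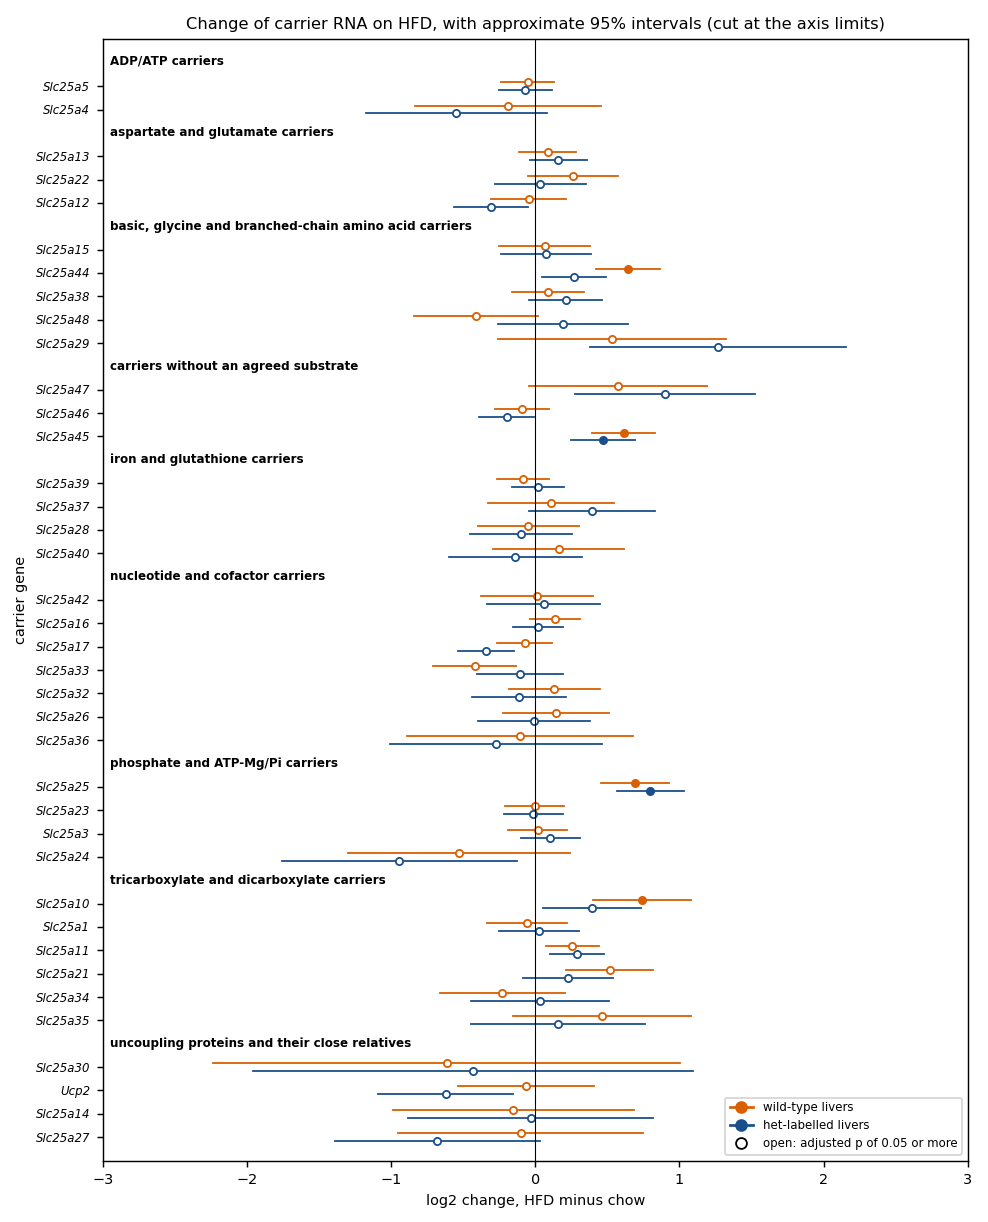
Log2 change on HFD against chow for 38 of the 39 tested carriers, in wild-type and in het-labelled livers, by substrate class, with bars for the 95% interval. Slc25a25, at 0.69 and 0.80, and Slc25a45, at 0.61 and 0.47, are called in both genotypes, and most carriers lie near 0.

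Among the phosphate and ATP-Mg/Pi carriers, 1 of 4 tested was called, Slc25a25, and the abundant Slc25a3 and Slc25a23 did not pass the test. Over all tested rows, 4.59% were called in wild-type and 3.02% in het-labelled livers. Slc25a25 is a calcium-regulated carrier that exchanges ATP-Mg for phosphate and so sets the adenine nucleotide content of the matrix. It stood at 286 and 283 CPM (wild-type chow), 418 and 501 (wild-type HFD), 262 and 262 (het-labelled chow) and 434 and 478 (het-labelled HFD). Every HFD library lay above every chow library, whatever the genotype, which held for 7.19% of all tested rows. The log2 change was 0.69 ± 0.10 in wild-type livers, or 1.61-fold (edgeR adjusted p = 0.00919), and 0.80 ± 0.10 in het-labelled livers, or 1.74-fold (adjusted p = 0.00828). The change averaged over genotypes was 0.74 ± 0.07 (adjusted p = 0.00072), and the difference between the genotypes in this response was 0.11 ± 0.14, with a 95% interval of -0.22 to 0.44 (adjusted p = 0.876). The wild-type call was lost without wild-type chow library 1 or 2 or wild-type HFD library 6 (adjusted p = 0.103, 0.0809 and 0.0571). The call in het-labelled livers and the call averaged over genotypes held under every alternative run. Of the exon bases of Slc25a25, 9.2% are shared with Naif1 on the opposite strand, and strand handling is not stated.

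The other ATP-Mg/Pi carriers did not pass the test. Slc25a23, also abundant in these livers, stood at 281 and 285 CPM for wild-type mice given chow and 282 and 283 for those given HFD. For het-labelled mice it stood at 286 and 248 on chow and 273 and 256 on HFD, and all 8 libraries lay within a narrow band. Its log2 change was -0.0031 ± 0.09 in wild-type livers, with an interval of -0.21 to 0.20, and -0.01 ± 0.09 in het-labelled livers. Slc25a24, at 0.644 to 1.51 CPM, had log2 changes of -0.53 ± 0.34 (adjusted p = 0.458) and -0.94 ± 0.36 (adjusted p = 0.207). The phosphate carrier Slc25a3, which brings in the phosphate for ATP synthesis, lay between 227 and 271 CPM, and its change averaged over genotypes was 0.06 ± 0.06 with an interval of -0.08 to 0.20. The ADP/ATP carrier Slc25a5 had a log2 change of -0.05 ± 0.08 in wild-type and -0.07 ± 0.08 in het-labelled livers, with intervals of -0.24 to 0.13 and -0.25 to 0.11, neither past the test. Slc25a4 gave -0.19 ± 0.28 and -0.55 ± 0.28, and the testis form Slc25a31 was not tested.

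Of the tricarboxylate and dicarboxylate carriers, 3 of 6 were called higher when both genotypes were averaged, 1 in wild-type livers and 0 in het-labelled livers. Of all tested rows, 5.56%, 2.37% and 1.53% were called higher in these comparisons. The median log2 change of the 6 was 0.29, beside 0.01 for all tested rows. Slc25a10, the dicarboxylate carrier, exchanges malate or succinate for phosphate and supplies malate for glucose and fatty acid synthesis. It was measured at 176 and 196 CPM (libraries 1 and 2, wild-type chow), 313 and 308 (5 and 6, wild-type HFD), 135 and 132 (3 and 4, het-labelled chow), and 207 and 144 (7 and 8, het-labelled HFD). In wild-type livers both HFD libraries lay well above both chow libraries, while in het-labelled livers HFD library 8 was only slightly above the chow pair. The log2 change was 0.74 ± 0.15 in wild-type livers, or 1.67-fold (edgeR adjusted p = 0.0297), 0.39 ± 0.15 (adjusted p = 0.206) in het-labelled livers, and 0.57 ± 0.11 (adjusted p = 0.0122) averaged over both. The response did not differ detectably between the genotypes: the interaction was -0.34 ± 0.21 (adjusted p = 0.735), with an interval of -0.82 to 0.14. Without het-labelled HFD library 8, Slc25a10 was called in het-labelled livers too (adjusted p = 0.0251). Leaving out any 1 of the 4 wild-type libraries ended the wild-type call, with adjusted p between 0.116 and 0.255, and without wild-type chow library 1 the average over genotypes was at 0.0653. Exon bases shared with Gm11788 on the opposite strand make up 11.3% of Slc25a10.

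Slc25a11, the oxoglutarate carrier, swaps oxoglutarate for malate and works in the malate-aspartate shuttle. It stood at 57.02 and 55.4 CPM on chow against 67.9 and 66.4 on HFD in wild-type livers, and at 53.8 and 54.8 on chow against 63.9 and 68.7 on HFD in het-labelled ones, and the 4 HFD libraries all lay above the 4 chow libraries. The change was small and even, 0.26 ± 0.08 (adjusted p = 0.122) in wild-type and 0.29 ± 0.08 (adjusted p = 0.106) in het-labelled livers, and it was called when both were averaged, at 0.27 ± 0.06 (adjusted p = 0.02). Slc25a21, which carries oxoadipate from the breakdown of lysine and tryptophan, was measured at 11.7 and 11.1 CPM (wild-type chow), 16.4 and 16.2 (wild-type HFD), 9.71 and 12.3 (het-labelled chow) and 12.3 and 13.5 (het-labelled HFD). The wild-type HFD pair lay above all other libraries, and the het-labelled groups touched. Its change averaged over genotypes was 0.37 ± 0.10 (adjusted p = 0.0424), from 0.52 ± 0.13 (adjusted p = 0.0653) in wild-type and 0.23 ± 0.14 (adjusted p = 0.441) in het-labelled livers. The averaged call of Slc25a11 was lost without wild-type library 1, 2, 5 or 6 or het-labelled HFD library 8, with adjusted p up to 0.0999, and by DESeq2 (0.0618). That of Slc25a21 was lost without any library but het-labelled chow library 4, with adjusted p up to 0.143, by DESeq2 (0.139) and with upper-quartile scaling (0.0537). In wild-type livers Slc25a21 was called without het-labelled chow library 3 or 4 (adjusted p = 0.0294 and 0.036).

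Slc25a1, the citrate carrier, exports the citrate from which the cytosol makes fatty acids and sterols. It was measured at 186 and 196 CPM for wild-type mice given chow, 206 and 162 for those given HFD, 174 and 187 for het-labelled mice given chow, and 173 and 196 for those given HFD, and the HFD libraries of both genotypes overlapped with the chow libraries. Its log2 change was -0.06 ± 0.12 in wild-type livers, with an interval of -0.34 to 0.22 (edgeR adjusted p = 0.849), and 0.03 ± 0.12 in het-labelled livers, with an interval of -0.25 to 0.31 (adjusted p = 0.939). Of 10 enzymes that make citrate or turn it into lipid, 4 were called higher on HFD in wild-type livers and 1 lower. Over all tested rows, 4.59% were called there, and 2.37% were called higher. Acly, which splits citrate in the cytosol, rose by 0.95 ± 0.16 (adjusted p = 0.014). Acaca, the acetyl-CoA carboxylase that follows it, rose by 1.24 ± 0.20 (0.0122), and Fasn, the fatty acid synthase, by 2.47 ± 0.30 (0.00374), each with the adjusted p in brackets. Pcx, the mitochondrial pyruvate carboxylase, rose by 0.59 ± 0.11 (adjusted p = 0.0239), and Idh2, a mitochondrial isocitrate dehydrogenase, had a log2 change of -0.45 ± 0.10 (adjusted p = 0.0443). In het-labelled livers 1 of the 10 was called higher, Fasn, and 1 lower, Idh2, where 3.02% of all tested rows were called. The calls of Fasn held under every alternative run. Without a single wild-type library the wild-type calls of Acaca, Pcx and Idh2 ended whichever of the 4 it was, and that of Acly ended without library 1, 5 or 6, with adjusted p up to 0.134 for Acly, 0.127 for Acaca, 0.188 for Pcx and 0.259 for Idh2. Without het-labelled HFD library 7 or 8 the wild-type call of Idh2 ended too. That in het-labelled livers ended without any 1 library but het-labelled chow library 3, with adjusted p up to 0.135. The relatives Slc25a34 and Slc25a35, whose substrates are less well settled, were scarce and not called, with changes averaged over genotypes of -0.10 ± 0.14 and 0.31 ± 0.19.

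Of the amino acid carriers, 1 was called for diet. Slc25a44, which carries branched-chain amino acids into mitochondria, stood at 51.5 and 56.1 CPM (libraries 1 and 2, wild-type chow), 85.6 and 82.5 (5 and 6, wild-type HFD), 59.4 and 52.9 (3 and 4, het-labelled chow), and 71.1 and 64.4 (7 and 8, het-labelled HFD). In each genotype both HFD libraries lay above both chow libraries, and the wild-type HFD pair was the highest. It rose by 0.64 ± 0.10 in wild-type livers, or 1.56-fold (edgeR adjusted p = 0.00966), and averaged over genotypes by 0.46 ± 0.07 (adjusted p = 0.00466). In het-labelled livers the change was 0.27 ± 0.10 (adjusted p = 0.182). The interaction, which tests the difference of these changes, was -0.37 ± 0.14 with an interval of -0.68 to -0.06 and did not pass (edgeR adjusted p = 0.671). Without wild-type library 1, 2, 5 or 6 the wild-type call ended, with adjusted p between 0.0544 and 0.12, while the averaged call held throughout.

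Slc25a15, the ornithine-citrulline carrier of the urea cycle, stood at 369.9 and 371 CPM on chow against 322 and 452 on HFD in wild-type livers, and at 302 and 307 on chow against 316 and 325 on HFD in het-labelled ones. Wild-type HFD library 6 was the highest and wild-type HFD library 5 lay below both chow libraries, so the diet groups overlapped. The changes were 0.06 ± 0.14 and 0.07 ± 0.14, neither called. Of 5 tested urea cycle enzymes, 1 was called for diet in wild-type livers, where 4.59% of all tested rows were called. This was Cps1, which makes carbamoyl phosphate, with a log2 change of -0.65 ± 0.12 (edgeR adjusted p = 0.0188). Cps1 was not called in het-labelled livers, at -0.20 ± 0.12 (adjusted p = 0.421). The wild-type call of Cps1 ended without library 1, 2 or 5 (adjusted p up to 0.119). Slc25a38, which supplies glycine for haem synthesis, had 0.15 ± 0.08 averaged over genotypes and Slc25a48, linked to choline import, -0.11 ± 0.14, both not called. Slc25a29, a carrier of basic amino acids at 0.7796 to 2.68 CPM, gave 1.27 ± 0.39 (adjusted p = 0.13) in het-labelled livers and 0.90 ± 0.26 (adjusted p = 0.065) averaged over both. Its interval was wide, 0.30 to 1.49 for the average, which was called without het-labelled HFD library 8 (adjusted p = 0.0243).

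Aspartate and glutamate carriers were not called for diet, 0 of 3 tested in either genotype. Slc25a13 stood at 184 and 195 CPM (wild-type chow), 212 and 191 (wild-type HFD), 182 and 179.8 (het-labelled chow) and 209 and 195 (het-labelled HFD), and its changes of 0.09 ± 0.09 and 0.16 ± 0.09 had intervals of -0.11 to 0.28 and -0.04 to 0.36. The 4 tested enzymes of the malate-aspartate shuttle, Got1, Got2, Mdh1 and Mdh2, were not called in any comparison.

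Carriers whose substrate is unsettled held 2 of the 7 averaged calls. Slc25a45, an orphan for most of its history and more recently linked to methylated amino acids, was measured at 21.7 and 20.1 CPM for wild-type mice given chow, 32.1 and 31.9 for those given HFD, 20.7 and 18.7 for het-labelled mice given chow, and 27.9 and 26.7 for those given HFD. All 4 HFD libraries lay above all 4 chow libraries. It rose by 0.61 ± 0.10 in wild-type livers, or 1.53-fold (edgeR adjusted p = 0.0113), by 0.47 ± 0.10 in het-labelled livers, or 1.39-fold (adjusted p = 0.0416), and by 0.54 ± 0.07 (adjusted p = 0.00204) averaged over both. The averaged call held under every alternative run. The wild-type call ended without wild-type library 1, 2, 5 or 6, with adjusted p up to 0.106, and the het-labelled call ended without any 1 of the 8 libraries, with adjusted p between 0.0535 and 0.152. The latter also ended by DESeq2 (adjusted p = 0.103) and with only the groups compared in the fit (0.178).

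Slc25a47, a carrier made almost only in liver, stood at 382 and 337 CPM (libraries 1 and 2, wild-type chow), 521 and 550.4 (5 and 6, wild-type HFD), 129 and 232 (3 and 4, het-labelled chow), and 414 and 258 (7 and 8, het-labelled HFD). Het-labelled chow library 3 was the lowest, the wild-type HFD pair the highest, and the 2 het-labelled libraries of each diet lay far apart. Its log2 change was 0.58 ± 0.27 (adjusted p = 0.296) in wild-type and 0.90 ± 0.27 (adjusted p = 0.128) in het-labelled livers, neither called, and 0.74 ± 0.19 (adjusted p = 0.045) averaged over both, which was called. That call ended without any 1 of wild-type libraries 1, 2, 5 and 6, het-labelled chow library 3 or het-labelled HFD library 7, with adjusted p up to 0.146, and also by DESeq2 (0.0713) and with upper-quartile scaling (0.0522). In wild-type livers Slc25a47 was called with only the groups compared in the fit (log2 change 0.55, edgeR adjusted p = 0.00963). In het-labelled livers it was called with no filter on low counts (edgeR adjusted p = 0.0411), and without chow library 4, at a log2 change of 1.38. Slc25a46, which sits in the outer membrane and bears on mitochondrial shape, had log2 changes of -0.09 ± 0.08 and -0.20 ± 0.08 and was not called.

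**Figure D3:**
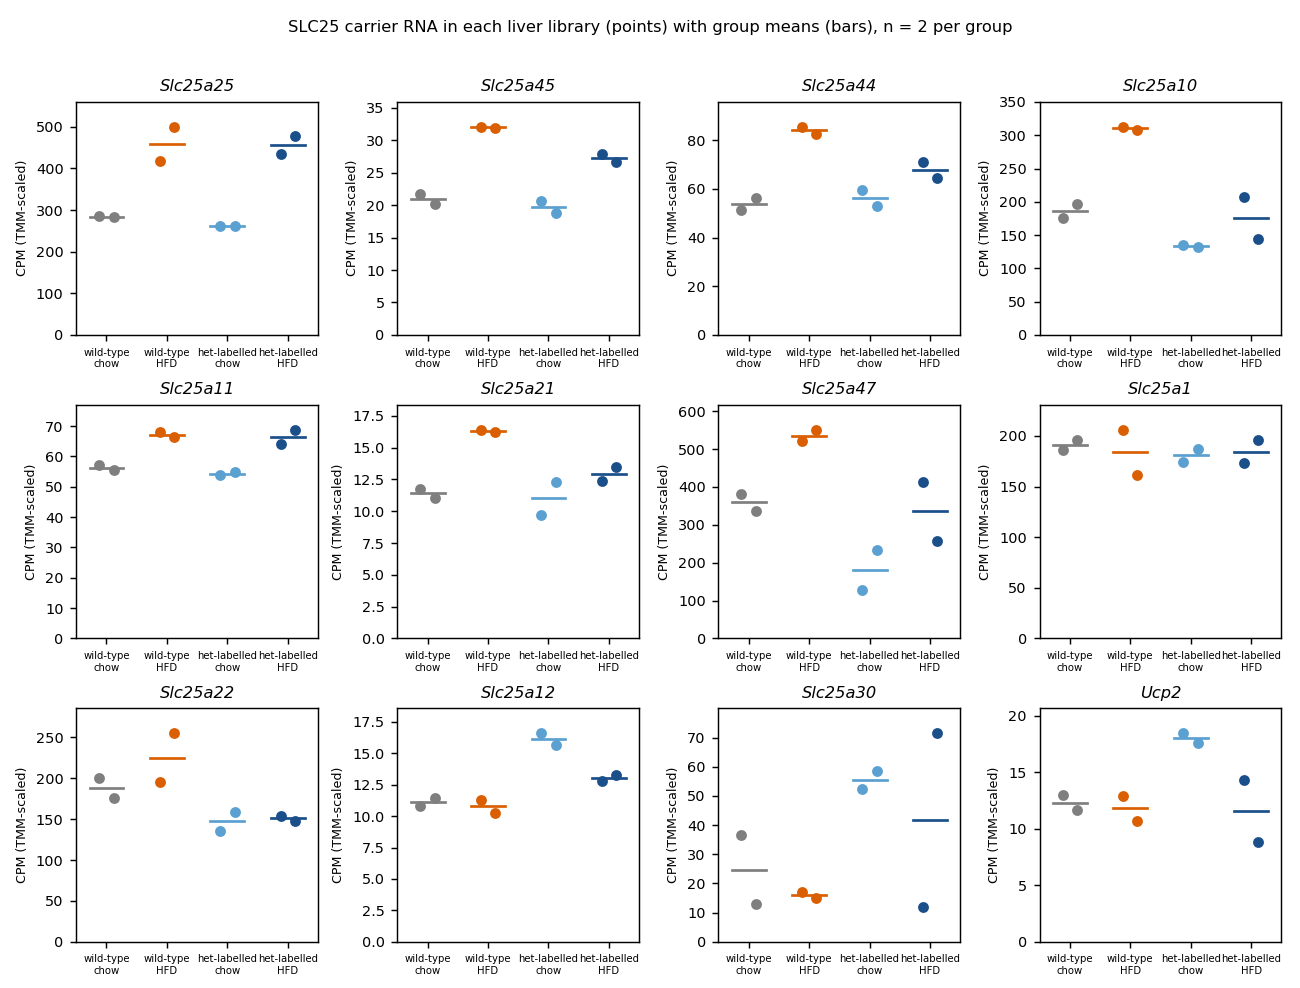
Level in CPM of 12 carriers in each of the 8 libraries, grouped by genotype and diet, with 1 point per library, a line at each group mean and a separate axis for each carrier. The 4 HFD points of Slc25a25 and of Slc25a45 lie above the 4 chow points, and those of Slc25a1 overlap with them.

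Nucleotide and cofactor carriers were not called for diet, 0 of 8 in each genotype. Slc25a16, linked to coenzyme A supply, was the steadiest of the tested carriers, between 70.4 and 77.8 CPM with a coefficient of variation of 3.92% over the 8 libraries. Slc25a42, which carries coenzyme A, had a change of 0.03 ± 0.12 averaged over genotypes. Slc25a17, the peroxisomal carrier of coenzyme A and flavin nucleotides, was at 66.5 and 71.4 CPM on chow against 67.98 and 63.2 on HFD in wild-type livers, and at 67.7 and 67.5 on chow against 52.3 and 54.4 on HFD in het-labelled ones. Both het-labelled HFD libraries lay below the other 6, and the change in het-labelled livers was -0.34 ± 0.09 (adjusted p = 0.072), beside -0.07 ± 0.08 (adjusted p = 0.705) in wild-type livers. The pyrimidine nucleotide carrier Slc25a33 gave -0.42 ± 0.13 (adjusted p = 0.11) in wild-type livers, and was called lower there without het-labelled chow library 3 or 4 (adjusted p = 0.04998 and 0.0454) and with only the groups compared in the fit (0.0325). Of the others, Slc25a26 for S-adenosylmethionine, Slc25a32 for folate and Slc25a36 for pyrimidine nucleotides, had averaged changes of 0.07 ± 0.12, 0.01 ± 0.10 and -0.19 ± 0.24.

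Iron and glutathione carriers were not called either, 0 of 4 in each comparison. The glutathione carriers Slc25a39 and Slc25a40 had log2 changes of -0.04 ± 0.06 and 0.01 ± 0.14 averaged over genotypes, and the mitoferrin Slc25a28, which imports iron, had -0.07 ± 0.11. Slc25a37, the mitoferrin of developing red cells, stood at 40.4 and 62.4 CPM (wild-type chow), 52.98 and 58.1 (wild-type HFD), 46.5 and 44.2 (het-labelled chow) and 66.95 and 51.8 (het-labelled HFD), and its change was 0.25 ± 0.14 (adjusted p = 0.292). Erythroid markers, 5 rows none of which was at 0 in all libraries, summed to 258 to 320.4 CPM in wild-type chow, 654 to 829 in wild-type HFD, 239.7 to 253 in het-labelled chow and 350.4 to 371 in het-labelled HFD libraries. Their part in the level of Slc25a37 was not tested.

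Uncoupling proteins and their relatives had negative changes on HFD, with a median of -0.13 in wild-type and -0.53 in het-labelled livers over 4 tested members, and 0 were called. Ucp2, found mostly in immune and other non-parenchymal cells of healthy liver, stood at 12.98 and 11.7 CPM for wild-type mice given chow, 12.9 and 10.7 for those given HFD, 18.4 and 17.6 for het-labelled mice given chow, and 14.3 and 8.82 for those given HFD. Both het-labelled chow libraries were above all others. Its change in het-labelled livers was -0.62 ± 0.21 (adjusted p = 0.152), and without het-labelled HFD library 7 it was called (adjusted p = 0.0372). Kupffer cell and macrophage markers, 9 rows with none at 0 throughout, summed to 158 to 170.5 CPM in wild-type chow, 159 to 163 in wild-type HFD, 386 to 459 in het-labelled chow and 167 to 263 in het-labelled HFD libraries. Of these 9, 6 were called higher in het-labelled than in wild-type livers on chow, where 0.516% of all tested rows were called in either direction. In het-labelled livers 7 were called lower on HFD than on chow, where 3.02% of all tested rows were called in either direction. Whether these marker calls hold under the alternatives was not examined. The part of these cells in the level of Ucp2 was not tested.

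Slc25a30, a close relative of the uncoupling proteins, varied more between libraries than any other tested carrier, with a coefficient of variation of 68.6%. It stood at 36.7 and 12.8 CPM (libraries 1 and 2, wild-type chow), 17.1 and 15.1 (5 and 6, wild-type HFD), 52.5 and 58.4 (3 and 4, het-labelled chow), and 11.9 and 71.4 (7 and 8, het-labelled HFD). Het-labelled HFD library 8 was the highest of all and its partner, library 7, the lowest, and the wild-type chow pair was also far apart. Its change averaged over genotypes was -0.52 ± 0.49 (adjusted p = 0.562), with an interval of -1.64 to 0.59. Without het-labelled HFD library 8 this was called (adjusted p = 0.028). The brain forms Slc25a14 and Slc25a27 reached at most 2.42 and 1.63 CPM and had averaged changes of -0.09 ± 0.26 and -0.39 ± 0.25.

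The second question of the design is how het-labelled livers differed from wild-type livers. On chow 0 of the 39 carriers were called by edgeR, where 0.516% of all rows were, although 11 had an unadjusted p under 0.05, which is 28.2% against 15.3% of all rows. DESeq2 also called 0, against 1.74% of the rows it tested. On HFD 0 were called by edgeR against 0.445% of all rows, and 11 had an unadjusted p under 0.05, against 13.8% of all rows. DESeq2 called 2 there, Slc25a10 and Slc25a22, against 1.93% of the rows it tested. With or without a call, het-labelled libraries lay below wild-type libraries, with no overlap, for 14 of the 39 carriers on chow and above them for 7, where 21.9% and 24% of all tested rows did. On HFD they lay below for 18 and above for 2, against 24.3% and 22.8% of all rows. Averaged over both diets, 2 carriers were called lower, Slc25a10 and Slc25a22, and 1 higher, Slc25a12. That is 7.69% of the carriers, where 3.24% of all rows were called. The averaged count was 0 without wild-type library 1, 2 or 6 or het-labelled chow library 3, 1 without het-labelled HFD library 8 and 7, with 1 higher and 6 lower, without het-labelled chow library 4. Without the latter the count on chow was 3, all lower (Slc25a34, Slc25a42 and Slc25a47), and without het-labelled HFD library 7 the count on HFD was 1. The median log2 difference over the 39 carriers was -0.08, beside 0.01 over all tested rows. Log2 differences below are het-labelled minus wild-type. The comparisons within a diet and the averages over diets use the same libraries and are not independent of each other.

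**Figure D4:**
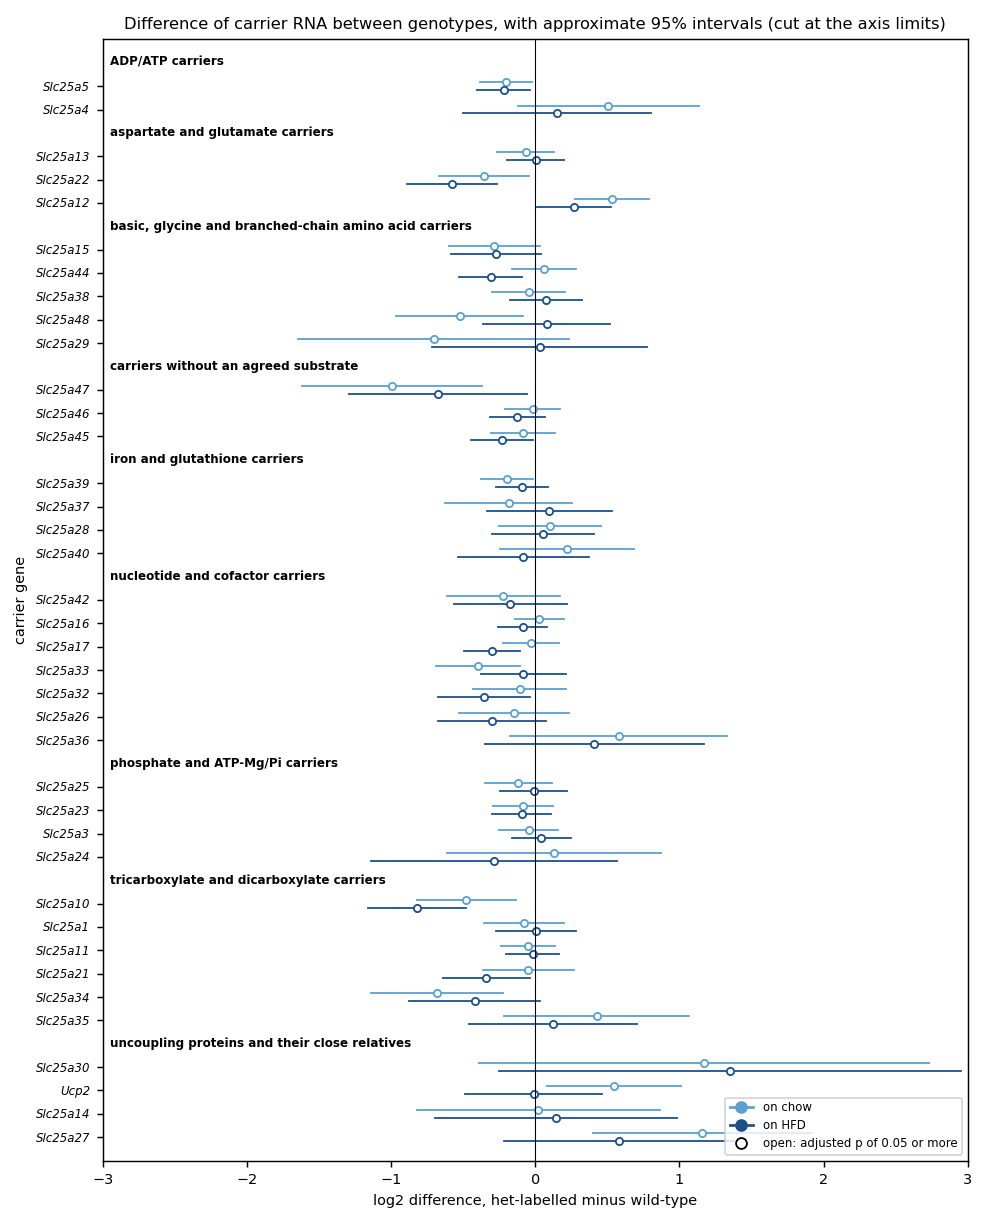
Log2 difference, het-labelled minus wild-type, for 38 of the 39 tested carriers, on chow and on HFD, by substrate class, with bars for the 95% interval. Slc25a10 lies at -0.48 on chow and -0.82 on HFD, Slc25a12 at 0.53 and 0.27, and no carrier is called within a single diet.

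The dicarboxylate carrier Slc25a10, with the library values given above, was lower in the het-labelled libraries on each diet, without overlap. The difference was -0.48 ± 0.15 (adjusted p = 0.193) on chow and -0.82 ± 0.15 (adjusted p = 0.0575) on HFD. Averaged over diets it was -0.65 ± 0.11, which is 1.57-fold lower (edgeR adjusted p = 0.022). This call was lost without wild-type library 1, 2, 5 or 6 or het-labelled chow library 3, with adjusted p between 0.0571 and 0.107. On HFD alone it was called by DESeq2 (adjusted p = 5.31e-05), by edgeR with no filter on low counts (0.00658) and without het-labelled HFD library 7 (0.00334), with the adjusted p in brackets.

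The 2 called glutamate carriers differed in opposite directions. Slc25a22, which carries glutamate together with a proton, stood at 201 and 176 CPM on chow against 196 and 255 on HFD in wild-type livers, and at 135 and 159 on chow against 154 and 148 on HFD in het-labelled ones. Every het-labelled library lay below every wild-type library, and 8.35% of all tested rows had the genotypes apart in this manner in either direction. The averaged difference was -0.47 ± 0.10, or 1.38-fold lower (edgeR adjusted p = 0.042), from -0.35 ± 0.14 on chow and -0.58 ± 0.14 on HFD. Slc25a12, the scarcer aspartate/glutamate carrier in these livers, was measured at 10.8 and 11.4 CPM (wild-type chow), 11.3 and 10.3 (wild-type HFD), 16.6 and 15.6 (het-labelled chow) and 12.8 and 13.3 (het-labelled HFD), and every het-labelled library lay above every wild-type library. Its averaged difference was 0.40 ± 0.08, or 1.32-fold higher (adjusted p = 0.0368), from 0.53 ± 0.11 on chow and 0.27 ± 0.11 on HFD. The call of Slc25a22 ended without any library but wild-type HFD library 5 and het-labelled chow library 4, with adjusted p up to 0.133, and with upper-quartile scaling (0.0512). That of Slc25a12 ended without any but het-labelled chow library 4, with adjusted p up to 0.135, and by DESeq2 (0.119). The Kupffer cell and macrophage markers given beside Ucp2 were also highest in het-labelled chow libraries, and their part in the level of Slc25a12 was not tested.

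Other carriers came near the threshold without passing it. Slc25a47 had an averaged difference of -0.83 ± 0.19 (adjusted p = 0.055), from -0.99 ± 0.28 on chow and -0.67 ± 0.27 on HFD. By DESeq2 it was called (adjusted p = 0.0389), as it was without het-labelled chow library 4 (adjusted p = 0.0161) or het-labelled HFD library 7 (0.0275). Without het-labelled chow library 4 it was also called on chow (0.035). The ADP/ATP carrier Slc25a5 stood at 340.4 and 353 CPM for wild-type mice given chow, 339.8 and 328 for those given HFD, 289 and 313 for het-labelled mice given chow, and 285 and 289 for those given HFD, with every het-labelled library below every wild-type library, and its small averaged difference of -0.21 ± 0.06 (adjusted p = 0.0821) was not called. Slc25a34 gave -0.55 ± 0.14 (adjusted p = 0.0741), called without het-labelled chow library 4 (0.0189), and the brain carrier Slc25a27 0.87 ± 0.24 (adjusted p = 0.0895). Slc25a30 had the widest interval, 0.14 to 2.38 around 1.26 ± 0.49 (adjusted p = 0.193), and was called without het-labelled HFD library 7 (adjusted p = 0.0225). For Slc25a1, Slc25a3, Slc25a13 and Slc25a23 the averaged differences were -0.04 ± 0.09, -0.002 ± 0.06, -0.03 ± 0.06 and -0.09 ± 0.06. The 10 enzymes that make citrate or turn it into lipid had a median averaged difference of -0.34, beside 0.01 over all tested rows. All 10 were negative, and 1 was called, Idh2, at -0.38 (edgeR adjusted p = 0.0347), where 3.24% of all tested rows were called. That call ended without wild-type library 1, 2, 5 or 6, het-labelled chow library 3 or het-labelled HFD library 8. Within a single diet 0 of the 10 were called.

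The interaction asks whether the diet response differed between the genotypes. By edgeR 0 of the 39 carriers were called, as was 0% of all tested rows, 2 had an unadjusted p under 0.05 (5.13% against 7.15% of all rows), and DESeq2 called 0 against 0.358% of the rows it tested. Slc25a44, described above, was among the 2. The calls made in wild-type but not in het-labelled livers, of Slc25a10 and Slc25a44, are therefore not shown to differ between the genotypes.

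Carriers reach the inner membrane through a dedicated import route, in which TOM receptors pass them to the small TIM chaperones and the TIM22 complex. All 13 tested genes of this route, Tomm70a, the receptor for carriers, among them, were not called in any of the 7 comparisons. Their median log2 change on HFD was 0.11 in wild-type and 0.10 in het-labelled livers, beside 0.02 and -0.01 over all tested rows. Of 5 genes for porins, the outer membrane channels, and for the mitochondrial pyruvate carrier, which is not an SLC25 protein, 0 were called for diet. Among these Brp44l, an older symbol of the pyruvate carrier subunit gene Mpc1, was called lower in het-labelled livers averaged over diets, at -0.34 ± 0.06 (edgeR adjusted p = 0.0261). That call ended without wild-type library 1, 2, 5 or 6, het-labelled chow library 3 or het-labelled HFD library 8 (adjusted p up to 0.127).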

How the data were processed

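Liver RNA of 8 libraries was sequenced on an Illumina HiSeq instrument from TruSeq libraries, per the labels' protocols, and groups were taken from the labels. The table the authors deposited holds raw counts, as whole numbers, in 22946 rows, of which 374 join several symbols. The submitters' processing notes name CASAVA, TopHat2, HTSeq, DESeq and the build mm9, without versions or roles, and strand handling was not given in the sources used here. Overlapping genes on opposite strands can therefore share reads, which touches 11 of the 46 carriers.

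The function filterByExpr of edgeR 4.0.16 (R 4.3.3) removed rows with few counts, using its minimum count of 10, and TMM factors scaled the libraries. All 8 libraries entered a single quasi-likelihood fit with a mean for each of the 4 groups, which left 4 residual degrees of freedom beside 4.77 from the prior. The biological coefficient of variation common to all rows was 11.2%. Tests were 2-sided, p-values were adjusted by the Benjamini-Hochberg method over 12593 rows, and the threshold for a call was an adjusted p of 0.05. Diet and genotype were compared in 7 ways: the diet in each genotype, the genotype on each diet, their interaction and the averages over genotypes and over diets. Each SE was calculated back from the test statistic, and intervals at 95% are approximate. The procedure was tested on simulated counts.

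The alternatives were RLE and upper-quartile scaling, no filter on low counts, DESeq2 1.42.0, a fit of only the groups compared, and leaving out each library. The carriers, their 9 substrate classes, the 5 lists of partner genes and the 8 lists of cell markers were chosen with earlier results of these data known. By rule, values are given for every called carrier, for a fixed panel of carriers, for the most abundant and the most diet-changed carrier of each class, and for up to 4 called genes of each partner list. Other carriers were added as values. Mcart1 and Mcart6, older symbols of Slc25a51 and Slc25a53, do not match the rule by name and were not used here. Values of 1 tested carrier are not reported here, and it enters only the counts and medians over all carriers.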

Additional observations from a re-analysis of the deposited data

How the results depend on the processing

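Over 273 pairs of a carrier and a comparison, 16 were called. Across all alternatives, 3138 values kept their direction and their side of the threshold, 188 stayed uncalled and turned direction, 69 lost a call, 37 gained one and 0 turned direction while called. In wild-type livers the count of carriers called for diet was 7 when only the groups compared were fitted, and 0 to 6 when 1 library was left out, against 4. In het-labelled livers it was 1 by DESeq2 and 1 with only the groups compared, and 1 to 2 with 1 library left out, against 2. Averaged over genotypes it was 4 by DESeq2 and 3 to 7 with 1 library left out, against 7. For the genotype, the count on chow was 1 without a filter on low counts and 0 to 3 with 1 library left out, against 0. On HFD it was 3 without the filter, 2 by DESeq2 and 0 to 1 with 1 library left out, against 0. Averaged over diets it was 5 without the filter and 0 to 7 with 1 library left out, against 3. The interaction count was 0 under every alternative run. Where a library was left out of a group, the remaining one was assumed to vary like the other groups, and the cause of each change of call was not tested. No paired analysis was possible because the library numbers run from 1 to 8 and the groups share none of them.

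With 2 libraries a group, intervals were wide for scarce carriers such as Slc25a29, and also for Slc25a30, whose libraries lay far apart. Further, 7 carriers had too few counts to be tested.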
